A study of Triticum aestivum with 32 samples.

Results

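Flag leaves of wheat plants kept under heat plus drought were compared with flag leaves of control plants by RNA sequencing. Libraries were taken from their labels, 4 from heat plus drought and 4 from control, 8 of the 32 libraries of the series. The plants were of 1 cultivar of bread wheat, Stettler, and the full series also held heat, drought, salt, salt plus heat, salt plus drought, and salt plus heat plus drought, with 4 libraries each. Treatments began at spike initiation (Feekes stage 8, 5 weeks after sowing), with 8 pots per treatment, and ran until the plants were mature. Heat plus drought plants stood at 30 °C between 9 am and 3 pm and otherwise at the 24 °C day and 18 °C night of the other plants, in soil held at 40% of field capacity. Plants under heat alone had the same warm hours at 100% of field capacity, and plants under drought alone had 40% of field capacity at 24 °C and 18 °C. Plants under salt plus heat plus drought had the heat and the drought with salt water that reached 80 mM NaCl, and plants under salt alone had that salt water at 24 °C, 18 °C and 100% of field capacity. Salt plus heat joined the salt water to the warm hours at 100% of field capacity, and salt plus drought joined it to 40% of field capacity without the warm hours. Control plants had tap water, 24 °C and 18 °C, and 100% of field capacity. All heated plants stood in 1 greenhouse and all unheated plants in another, so heat and greenhouse cannot be told apart. The 4 libraries of a treatment are described in the series text as biological replicates that were independent of each other.

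The flag leaf is the uppermost leaf of a wheat stem and supplies much of the sugar that fills the grain. Heat unfolds proteins and is met in plants by the induction of chaperones, while drying soil closes stomata and switches on genes through the hormone abscisic acid. Bread wheat is a hexaploid, so most genes exist as similar copies on the A, B and D subgenomes, and reads that fit several copies can be divided among them only as an estimate. The identifiers of the deposited table are not paired with gene names or functions in the sources used here, and none of them matched the reference gene table. Genes are therefore given by identifier, whose middle part names the chromosome, and the tissue label was not checked against leaf markers.

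Values were in TPM, a unit of relative abundance in which reads are divided by transcript length and every library is scaled to the same total. TPM of the transcripts of a gene model were summed, and 50881 gene models with at least 1 TPM in at least 4 of the 8 libraries were tested with limma on log2(TPM + 1). On this scale the fold change of a gene model with few TPM comes out smaller than the ratio of its TPM. A gene model was said to rise or fall when its p-value, adjusted by Benjamini-Hochberg over all gene models tested, was under 0.05. The flag leaf is a mixed tissue, and fewer cells of a type and less RNA per cell cannot be told apart in such samples.

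The heat plus drought libraries held 50552 to 52015 gene models at 1 TPM or more. The 100 gene models with the highest mean over all 32 libraries took 21.8% to 25.2% of all TPM there. Control replicate 3 stood apart from its group, with 44106 gene models at 1 TPM or more against 50218 to 51289 in the other control libraries. It had 33.5% of its TPM in the same 100 gene models, against 21.9% to 23.5% in the other control libraries. Heat replicates 1 and 3 had a similar share in these 100 gene models, 36.1% and 32.2%, and the 4 drought libraries had 26.5% to 33.3%. Salt replicate 3 had 21.6% of its TPM in low confidence gene models. Correlations of log2 values were 0.944 to 0.964 between heat plus drought libraries, 0.933 to 0.968 between control libraries and 0.915 to 0.943 between the groups.

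Heat plus drought changed 1604 gene models relative to control, 3.15% of those tested. Of these, 1039 rose (2.04% of those tested) and 565 fell (1.11%). The change was at least 2-fold on the log2(TPM + 1) scale for 460 of the rises and for 302 of the falls. Most changes were modest in size, with a median log2 change of 0.94 among the rises and -1.05 among the falls, against 0.09 over all gene models tested. Rises of at least 8-fold numbered 46, and falls of at least 8-fold numbered 6. Between those extremes, 326 rises and 265 falls were 2-fold to 4-fold, and 88 rises and 31 falls were 4-fold to 8-fold.

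The surplus of rises over falls depended on control replicate 3 and on the scaling of the libraries. Without that library 1323 gene models were called, 629 rises and 694 falls, with 605 of the 1039 rises and 470 of the 565 falls among them, and the median of all gene models was -0.03. Quantile normalisation called 1605 rises and 1661 falls, and median-of-ratios scaling called 1391 rises and 1642 falls, with medians of all gene models of 0.0071 and -0.0021. The direction of single gene models did not turn: after quantile normalisation 943 of the 1039 rises were called again as rises and 546 of the 565 falls as falls, and 0 of the 1604 were called in the opposite direction by limma (0 also at an unadjusted p under 0.05). Leaving out any 1 of the 8 libraries lowered the count, to 881 to 1378 gene models. It was lowest without heat plus drought replicate 2, with 587 of the 1039 rises still called and 280 of the 565 falls, and it was 1058 without heat plus drought replicate 4.

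All 4 heat plus drought libraries lay above all 4 control libraries for 1002 of the 1039 rises, and below them for 512 of the 565 falls. Over all gene models tested, the groups were separated in this way upward for 8.12% and downward for 3.05%. Among the rises, heat plus drought replicate 2 held the highest heat plus drought value for 377 gene models, replicate 1 for 290, replicate 3 for 201 and replicate 4 for 171. Among the falls, replicate 2 held the lowest value for 281 gene models, against 77 to 118 in the other 3 libraries. The 4 libraries were nevertheless close in size of change. The median difference of a heat plus drought library from the control mean was 0.92 to 1.03 on the log2 scale over the rises and -1.22 to -0.90 over the falls, and these gene models had been chosen with the same libraries.

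**Figure D1:**
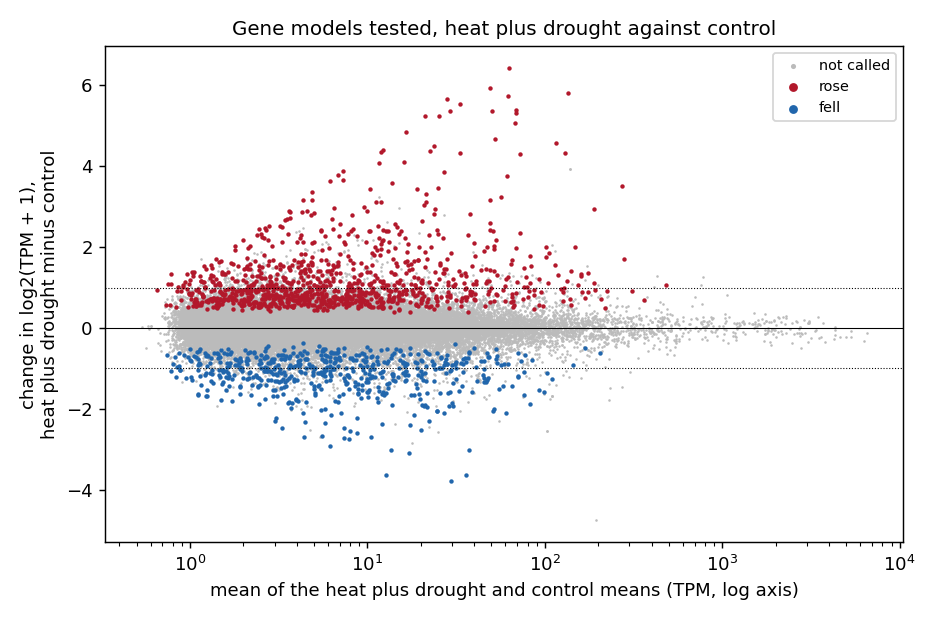
Each point is 1 of the 50881 gene models tested, with the mean of the heat plus drought and control means in TPM on a log axis and the difference in log2(TPM + 1), heat plus drought minus control, on the vertical axis. The 1039 rises are red and the 565 falls are blue, dotted lines mark 2-fold, and the largest rises reach a log2 change of 6.42 while the largest fall called is -3.79.

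On the deposited scale and with all libraries, abundant gene models were more often raised than lowered. Of 1126 gene models that averaged 100 TPM or more over the 32 libraries, 37 rose (3.29%) and 3 fell (0.266%). Between 20 and 100 TPM 2.92% rose and 1.43% fell, and between 1 and 5 TPM 1.79% rose and 0.923% fell. The lowest class, with a mean under 1 TPM, was the only one of the 5 classes with more falls, 50 against 23 rises among 1455 gene models. Gene models in this lowest class passed the filter on the heat plus drought and control libraries while averaging under 1 TPM over all 32 libraries. This favours gene models that were higher in some of the libraries used for the filter than elsewhere. The balance of rises and falls in the lowest class therefore cannot be separated from the choice of gene models. Differences between the 5 classes were not tested. The surplus of rises depended on control replicate 3 and on the scaling, and the classes were not counted again without that library or after other scaling.

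In sum, the rises added 16202 TPM to the mean heat plus drought library and the falls summed to -6091 TPM. Library totals are fixed in TPM, so gene models that were not called offset the difference. The sums are for all libraries on the deposited scale, where the surplus of rises depended on control replicate 3 and on the scaling. A small part of the 1039 rises held a large part of the gain. The 10 largest made up 16.2% of it and the 50 largest 42.5%, and the largest single rise was 456 TPM. Among the 565 falls, 13.9% of the loss was in the 10 largest and 41.1% in the 50 largest.

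The share of all TPM held by the 1039 rises was 2.74%, 2.86%, 2.63% and 2.43% in the heat plus drought libraries, and 1.1%, 1.09%, 0.879% and 1.11% in the control libraries. The groups were far apart, as they had to be, since these gene models were chosen by this difference. In libraries that had no part in the choice, the share was 1.54%, 2.46%, 1.65% and 2.45% under heat alone and 1.61%, 1.17%, 1.3% and 1.16% under drought alone. It averaged 2.30% under salt plus heat plus drought, 2.85% under salt plus heat, 1.44% under salt plus drought and 1.36% under salt alone. The mean share of the rises was thus higher in each of the 4 groups with heat than in each of the 4 without it, although the lowest heated library, a heat library at 1.54%, lay below the highest unheated one, a drought library at 1.61%. The 2 lowest heat libraries were replicates 1 and 3, with 36.1% and 32.2% of their TPM in the 100 gene models most abundant over the series.

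The 565 falls held 0.516%, 0.399%, 0.443% and 0.482% of TPM in the heat plus drought libraries and 1.11%, 1.06%, 0.910% and 1.2% in the control libraries. Their mean share was 0.644% under heat alone, 0.674% under drought alone, 0.747% under salt alone and 0.738% under salt plus drought. Salt plus heat and salt plus heat plus drought averaged 0.475% and 0.477%, and heat plus drought averaged 0.460%. The mean share of the falls was thus lower in each of the 4 groups with heat than in each of the 4 without it. The order of heat plus drought and control was fixed by the choice of these gene models. Among the other groups the order held, but without salt it rested on 0.644% under heat against 0.674% under drought. The order by heat is the reverse of that seen for the rises. Single libraries overlapped, at 0.551% to 0.706% under heat alone and 0.553% to 0.804% under drought alone. The lowest salt library, at 0.602%, also lay within the heat range.

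**Figure D2:**
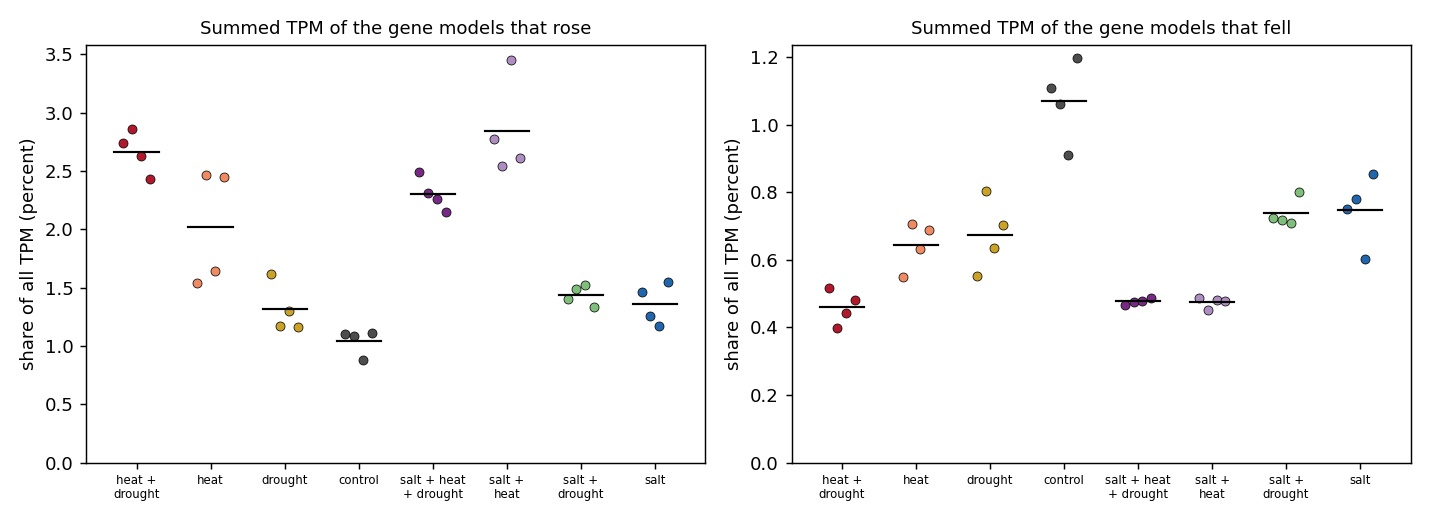
Share of each library's TPM, in percent, held by the 1039 gene models that rose (left) and the 565 that fell (right) under heat plus drought, with 1 point per library and a line at the mean of 4. The rises are at 2.43% to 2.86% in heat plus drought and 0.879% to 1.11% in control, and the falls at 0.399% to 0.516% in heat plus drought and 0.910% to 1.2% in control.

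The changes were spread over the whole genome. Subgenome A held 318 rises and 176 falls among 16406 gene models tested (1.94% and 1.07%), subgenome B 376 and 192 among 17040 (2.21% and 1.13%), and subgenome D 333 and 192 among 16629 (2.003% and 1.15%). By chromosome the share that rose ran from 1.69% on 6D to 2.52% on 1B, and the share that fell from 0.764% on 7B to 1.45% on 3B. High confidence gene models, of which 41145 were tested, rose in 2.13% and fell in 1.31% of cases. Low confidence gene models, of which 9736 were tested, rose in 1.67% and fell in 0.288%. None of these differences between classes was tested.

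The strongest rise was of TraesCS2D02G276000, a high confidence gene model on chromosome 2D. It had 129.6, 174, 145 and 52.4 TPM in the heat plus drought libraries, and 0.42, 0.81, 0.09 and 0.19 TPM in the control libraries. Even the lowest heat plus drought library was far above the highest control library, and the gene model was nearly silent in control leaves. Its log2 change was 6.42 ± 0.40 (SE, limma, adjusted p = 1.14e-11). Heat alone gave 10.1, 68.9, 12.8 and 45.8 TPM and drought alone 0.25 to 0.70 TPM. The heat libraries fell below most of the heat plus drought libraries with some overlap, while the drought libraries lay in the range of the control libraries. In salt plants it had 78.7, 72.4, 66.7 and 60.8 TPM under salt plus heat plus drought and 88.3, 218.6, 231 and 233.6 TPM under salt plus heat, so with salt the libraries with drought lay below those without it (log2 difference -1.36, adjusted p = 0.129). The gene model has 2 transcripts, and 97.5% of its TPM under heat plus drought came from 1 of them.

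TraesCS5D02G266000, on chromosome 5D, had 86.4, 148, 94.1 and 61.4 TPM in the heat plus drought libraries and 0.81, 0.26, 0.52 and 0.56 TPM in the control libraries. The groups did not overlap, and the log2 change was 5.94 ± 0.41 (SE, limma, adjusted p = 8.79e-11). Heat alone raised it to 3.24, 26.9, 4.96 and 28.5 TPM, all below the heat plus drought libraries, and under drought alone it had 0.35 to 1.62 TPM. Its level under heat plus drought was above that under heat alone by 2.96 ± 0.41 on the log2 scale (SE, limma, adjusted p = 0.000483). In salt plants it had 113.6, 78.4, 116 and 106 TPM under salt plus heat plus drought and 107.9, 124, 255.4 and 133 TPM under salt plus heat. There the mean with drought was the lower one, and the difference of -0.51 ± 0.41 did not pass the threshold (SE, limma, adjusted p = 0.670).

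The largest fall was of TraesCS5B02G059200 on chromosome 5B. It had 6.6, 1.09, 1.75 and 5.22 TPM in the heat plus drought libraries and 59.2, 45.8, 54.2 and 63.4 TPM in the control libraries. The control libraries were close together and the heat plus drought libraries all far below them, with a log2 change of -3.79 ± 0.57 (SE, limma, adjusted p = 7.78e-05). Heat alone gave 6.8 to 22.2 TPM, and drought alone gave 1.97, 47.0, 11.3 and 13.4 TPM. Heat and drought each lowered it relative to the same control libraries (log2 change -2.20 with adjusted p = 0.0438, and -2.16 with adjusted p = 0.0472), and drought replicate 2 was within the control range.

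TraesCS5D02G068800, on chromosome 5D, followed a similar order of levels. It had 7.75, 2.01, 4.27 and 5.09 TPM in the heat plus drought libraries and 69.9, 53.5, 65.8 and 79.1 TPM in the control libraries, without overlap. Its log2 change was -3.64 ± 0.45 (SE, limma, adjusted p = 2.97e-06). Under heat alone its TPM averaged 14.0 ± 7.64 and under drought alone 19.8 ± 15.9 (SD, n = 4 each). All 4 of these gene models kept their direction and stayed under the threshold of 0.05 in each of the 20 other settings and omissions tried, with a highest adjusted p of 0.00093.

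**Figure D3:**
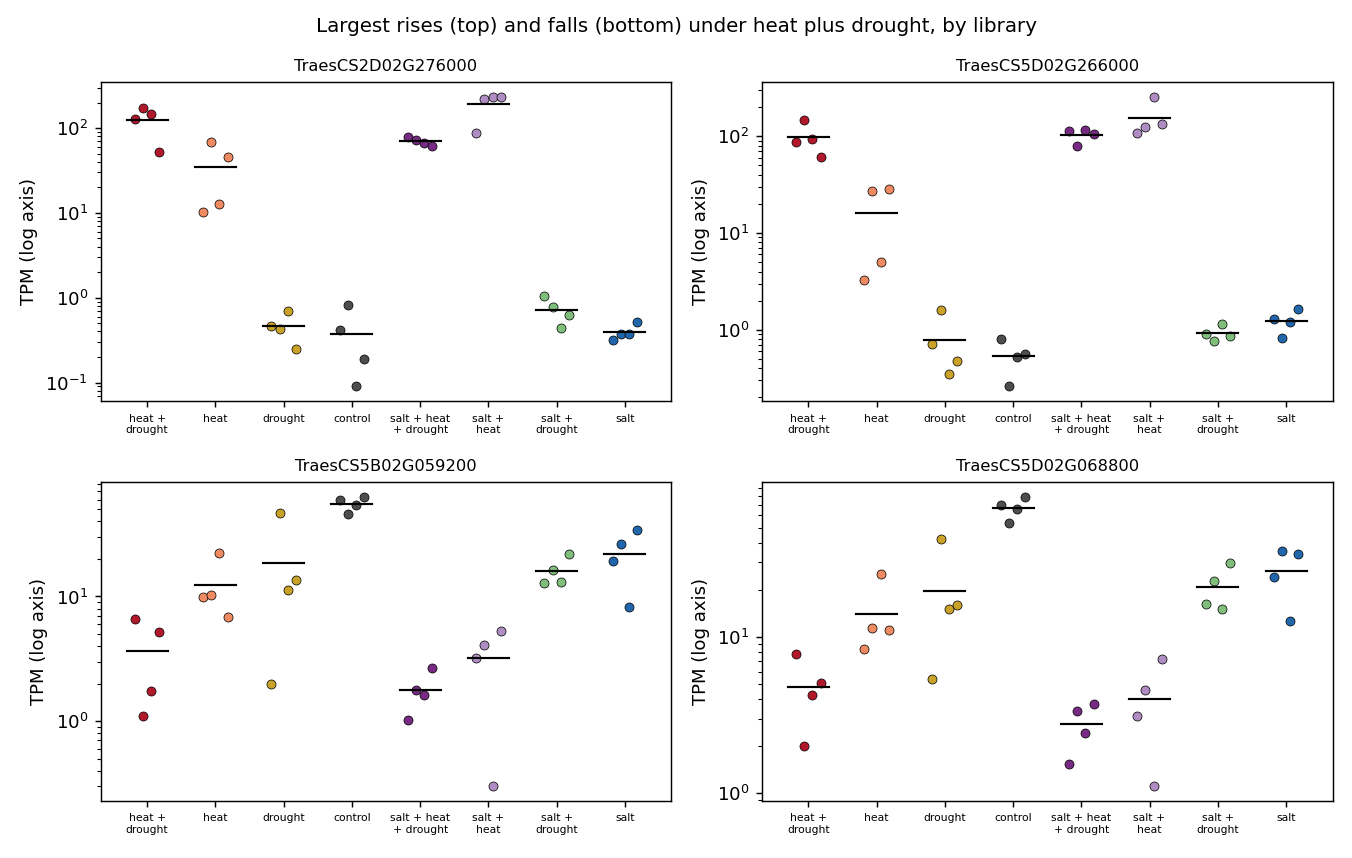
TPM of the 2 gene models with the largest rise (top) and the 2 with the largest fall (bottom) under heat plus drought, on a log axis, with 1 point per library and a line at the mean of 4, for all 8 groups. TraesCS2D02G276000 is at 52.4 to 174 TPM in heat plus drought and 0.09 to 0.81 TPM in control, and TraesCS5B02G059200 is at 1.09 to 6.6 TPM in heat plus drought and 45.8 to 63.4 TPM in control.

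The 20 largest rises that averaged 5 TPM or more under heat plus drought, with no overlap between the groups, had log2 changes of 4.36 to 6.42. They lay on 17 chromosomes and all were of high confidence. Against the same control libraries their median log2 change was 5.28 under heat plus drought, 3.08 under heat alone and 0.15 under drought alone, where the range was -0.16 to 1.52. The 20 largest falls chosen in the same way had log2 changes of -3.79 to -2.31 and lay on 12 chromosomes. Their medians were -2.69 under heat plus drought, -1.36 under heat alone and -2.00 under drought alone. Of these falls, 6 lay on group 1 chromosomes, 6 on group 5, 4 on group 4, 3 on group 3 and 1 on group 2, and groups 6 and 7 held none of them. Both lists of 20 were chosen by their values under heat plus drought and in control, and the 3 comparisons share the control libraries.

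Some gene models were near 0 in control and clearly expressed under heat plus drought. The thresholds for this were set after the values were seen. Of 50881 tested, 21 were under 1 TPM in all control libraries and at 5 TPM or more in all heat plus drought libraries. All 21 were among the rises. They passed the filter only through their heat plus drought libraries. Such a gap between the groups makes a call as a rise likely from the thresholds alone. Their group means were 6.63 to 125 TPM under heat plus drought (median 23.0 TPM) and 0 to 0.54 TPM in control. Under heat alone the means were 2.69 to 34.4 TPM (median 6.77 TPM). Under drought alone 16 of the 21 were under 1 TPM in every library, and under salt alone 17 were. In salt plus heat plus drought, 12 of the 21 were at 5 TPM or more in every library, with means of 2.50 to 108 TPM (median 9.50 TPM). Chromosome 3B held 5 of the 21, chromosomes 2A, 2D, 3A, 5A and 7D held 2 each, and the others had at most 1. The reverse pattern, at 5 TPM or more in every control library and under 1 TPM in every heat plus drought library, was met by 1 gene model, with a mean of 0.765 TPM under heat plus drought and 8.12 TPM in control.

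Neighbours in identifier order changed together in places. High and low confidence gene models were ordered together by number, although the same number can occur in both classes. Neighbours of different class therefore need not lie side by side on the chromosome. The run on 1B began with a low confidence gene model and ended with a high confidence one. By this order there were 8 runs of 3 or more tested neighbours that all rose, and 1 run that all fell. Chromosomes 3A, 3B and 3D each held a run of rises. The longest was a run of 5 on chromosome 3B, from TraesCS3B02G130300 to TraesCS3B02G131300, with log2 changes of 3.36 to 5.25. The runs on 3A and 3D had 3 gene models each, with log2 changes of 3.17 to 4.84 and of 2.03 to 2.87. Reads shared among similar neighbouring gene models could link their values, and this was not tested.

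Summed over its 5 gene models, the 3B run had 95.3, 166.6, 136.7 and 58.6 TPM in the heat plus drought libraries and 0.42, 1.19, 0.19 and 0.23 TPM in the control libraries. It was at 7.83, 60.9, 14.3 and 31.8 TPM under heat alone and at 0.10 to 0.70 TPM under drought alone. The heated groups lay above all libraries without heat, and 3 of the 4 heat plus drought libraries lay above every heat library. In salt-treated plants the run was at 46.1 to 67.2 TPM with heat plus drought added and at 0.38 to 0.59 TPM under salt alone, and all 5 gene models rose there by the limma test.

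The run of falls held 5 gene models on chromosome 1A, from TraesCS1A02G422600 to TraesCS1A02G423100, with log2 changes of -2.93 to -1.08. Its summed TPM was 7.49, 3.94, 7.59 and 4.32 in the heat plus drought libraries and 34.9, 41.5, 18.4 and 33.8 in the control libraries. Drought alone brought 2.47 to 9.16 TPM, the range of heat plus drought, while heat alone brought 13.2 to 21.4 TPM. In salt plants the run was at 2.54 to 5.94 TPM under salt plus heat plus drought and 2.19 to 5.74 TPM under salt alone. In that pair the 5 gene models had adjusted p-values of 0.361 to 0.982.

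**Figure D4:**
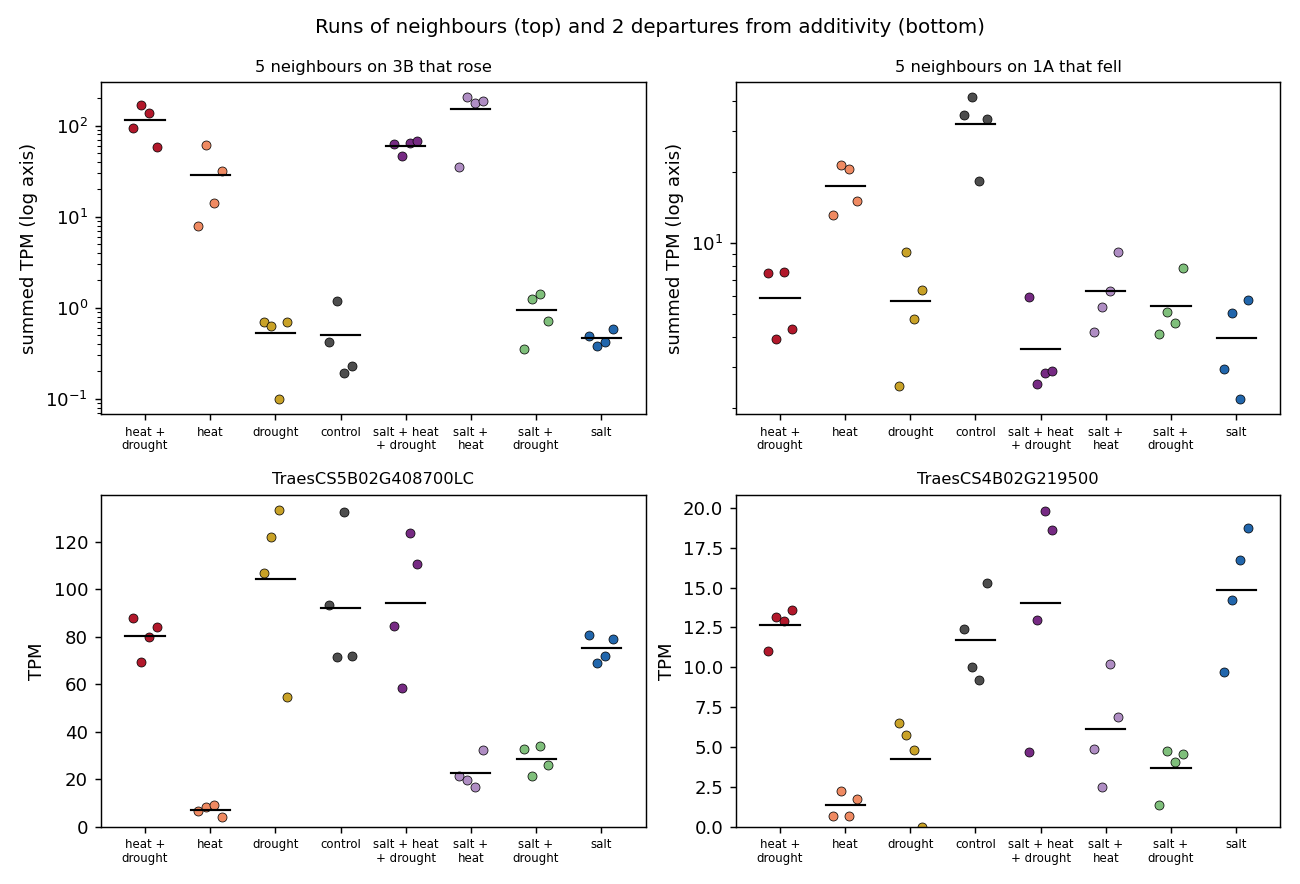
Top, summed TPM on log axes of the 5 neighbours on 3B that rose and the 5 on 1A that fell, by library in all 8 groups; bottom, TPM of 2 gene models named for added drought and for the departure from additivity. Lines mark means of 4; the 3B run is at 58.6 to 166.6 TPM in heat plus drought and 0.19 to 1.19 TPM in control, and TraesCS5B02G408700LC at 69.3 to 88.1 TPM in heat plus drought and 3.96 to 8.99 TPM in heat.

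Set beside the single stresses with the same control libraries, the rises and the falls had different profiles. The 1039 rises had a median log2 change of 0.94 under heat plus drought, 0.47 under heat alone and 0.12 under drought alone. The 565 falls had -1.05 under heat plus drought, -0.63 under heat alone and -0.65 under drought alone. Over all gene models tested the median was 0.09 under heat plus drought, -0.09 under heat alone and -0.18 under drought alone. Relative to these medians drought alone moved the falls about as far as heat alone, and it moved the rises less than heat alone did. The gene models were chosen on the heat plus drought and control libraries, so these are descriptions without a test.

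Heat plus drought was next compared with heat alone, which shows what drought changed in heated leaves. Relative to heat, 445 gene models changed (0.875%), 345 of them upward (0.678%) and 100 downward (0.197%), with a median over all gene models of 0.18. The count was unstable when single libraries of either group were left out. Without heat replicate 1 it was 104, without heat replicate 3 it was 148 and without heat replicate 4 it was 1616. Leaving out heat plus drought replicates 1, 2, 3 and 4 in turn gave 244, 85, 669 and 190. The model of the heat plus drought and heat libraries alone called 26, with 19 rises and 7 falls. The surplus of rises was also bound to the scaling, with 371 rises and 452 falls after quantile normalisation and 289 rises and 463 falls after median-of-ratios scaling.

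One of the 2 largest rises in this comparison was of TraesCS5B02G408700LC, a low confidence gene model on 5B. It had 88.1, 69.3, 80.1 and 84.0 TPM under heat plus drought and 6.75, 8.11, 8.99 and 3.96 TPM under heat. Heat stood alone in this respect among the plants without salt, with 54.7 to 133 TPM under drought and 71.5 to 132.5 TPM in control. The log2 difference from heat was 3.40 ± 0.26 (SE, limma, adjusted p = 1.56e-08), and the difference from control was -0.16 (adjusted p = 0.846). In salt-treated plants it averaged 94.3 TPM with heat plus drought, 22.4 TPM with heat, 28.4 TPM with drought and 75.2 TPM with salt alone. Salt plus heat plus drought was above salt plus heat by 2.01 ± 0.26 on the log2 scale (SE, limma, adjusted p = 0.00148).

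TraesCS5A02G257700, on chromosome 5A, had 45.2, 91.4, 53.9 and 34.2 TPM under heat plus drought and 0.90, 10.1, 0.67 and 9.54 TPM under heat. The groups did not overlap, and in the control libraries it was listed at 0 or at most 0.16 TPM. The log2 difference from heat was 3.61 ± 0.43 (SE, limma, adjusted p = 6.28e-05), and it lost its call when only the heat plus drought and heat libraries were modelled. Salt plus heat plus drought gave 52.1, 30.5, 65.3 and 74.3 TPM and salt plus heat gave 52.5, 64.2, 130.8 and 77.6 TPM, which overlapped (log2 difference -0.53, adjusted p = 0.673). The 2 largest falls relative to heat were nearer the threshold. TraesCS3A02G083400 was listed at 0 in 3 heat plus drought libraries and had 1.66 TPM in the fourth, against 9.29, 10.2, 3.31 and 24.4 TPM under heat, a log2 difference of -3.05 ± 0.63 (SE, limma, adjusted p = 0.0177). It lost its call at a pseudocount of 0.1 (adjusted p = 0.0512), with the compared groups modelled alone, without heat replicate 1 and without heat plus drought replicate 2. In salt plants it was listed at 0 in 3 of 4 libraries under salt plus heat plus drought and in 2 of 4 under salt plus heat.

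TraesCS6A02G445400LC had 0, 0.95, 0.65 and 7.42 TPM under heat plus drought and 15.6, 33.1, 21.6 and 14.2 TPM under heat. Its log2 difference of -3.20 ± 0.79 (SE, limma, adjusted p = 0.0465) was close to the threshold. The call was lost at a pseudocount of 0.1 (adjusted p = 0.115), without a filter, with the compared groups modelled alone, without heat replicate 1, 2 or 3, and without heat plus drought replicate 1, 2 or 3. In salt plants the order was the other way, with 19.2, 11.6, 28.4 and 22.7 TPM under salt plus heat plus drought and 0, 0, 5.01 and 1.48 TPM under salt plus heat. That difference was 3.38 ± 0.79 on the log2 scale (SE, limma, adjusted p = 0.0545).

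Heat plus drought was also compared with drought alone, which shows what heat changed in plants on dry soil. This comparison called 4444 gene models (8.73%), with 4185 rises (8.23%) and 259 falls (0.509%), and the median over all gene models was 0.27. Nearly all of that imbalance went with the scaling: quantile normalisation gave 1301 rises and 1022 falls, and median-of-ratios scaling 1234 rises and 1187 falls. The drought libraries had 26.5% to 33.3% of their TPM in the 100 gene models most abundant over the series, against 21.8% to 25.2% under heat plus drought. The part of this in the result was not tested. With the title number as a block the count was 1344. A count of 1432 to 6251 was obtained on leaving out 1 library. It was 2751 without drought replicate 1, 1496 without drought replicate 3, 1982 without drought replicate 4, 1432 without heat plus drought replicate 1, 2524 without its replicate 2 and 1969 without its replicate 4. Drought replicate 4 was lower than the other drought libraries along a stretch of chromosome 7A, where 68 of 441 gene models tested rose in this comparison, and 4 rose and 5 fell against control.

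The 2 largest rises relative to drought were again TraesCS2D02G276000, with a log2 difference of 6.31 ± 0.40 (SE, limma, adjusted p = 2.43e-11), and TraesCS5D02G266000, with 5.76 ± 0.41 (SE, limma, adjusted p = 2.10e-10). The largest fall was of TraesCS3A02G083400, which had 5.28, 10.9, 7.51 and 9.09 TPM under drought and 6.75, 6.41, 7.21 and 4.34 TPM in control. Its log2 difference was -2.81 ± 0.63 from drought (SE, limma, adjusted p = 0.00799) and -2.47 ± 0.63 from control (SE, limma, adjusted p = 0.0251); with the title number as a block the difference from drought was -2.35 (adjusted p = 0.0636), and the call against heat was lost in the settings given above. TraesCSU02G086800, on no assigned chromosome, had 2.98, 12.3, 19.0 and 14.7 TPM under heat plus drought and 35.4, 26.2, 76.2 and 65.1 TPM under drought. Its log2 difference was -2.06 ± 0.56 (SE, limma, adjusted p = 0.0240), lost without a filter, with the title number as a block, and without drought replicate 3 or 4 or heat plus drought replicate 1.

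The departure from additivity is the log2 change under heat plus drought less the sum of the log2 changes under heat and under drought, all against the same control. It passed the threshold for 315 gene models (0.619%), upward for 309 (0.607%) and downward for 6 (0.0118%), with a median of 0.36 over all gene models tested. Neither the count nor the imbalance was stable. Quantile normalisation gave 46 upward and 40 downward, median-of-ratios scaling gave 60 and 91, and 1 gene model was called when these 4 groups were modelled by themselves. Each of the 16 omissions of 1 library moved the count by over 1.5 times. Omission of heat plus drought replicate 1 left 32 calls, of replicate 2 left 73, of replicate 3 left 1068 and of replicate 4 left 67. For heat the counts were 20 (replicate 1), 675 (replicate 2), 60 (replicate 3) and 3542 (replicate 4). For drought they were 82 (replicate 1), 1371 (replicate 2), 23 (replicate 3) and 203 (replicate 4), and for control 35 (replicate 1), 26 (replicate 2), 10171 (replicate 3) and 25 (replicate 4).

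The 2 largest upward departures had low values under both single stresses. TraesCS4B02G219500, on 4B, had 11.01, 13.2, 12.9 and 13.6 TPM under heat plus drought, 0.69, 2.22, 0.69 and 1.71 TPM under heat, 6.49, 5.76, 4.79 and 0 TPM under drought, and 12.4, 9.99, 9.20 and 15.3 TPM in control. Heat plus drought and control overlapped, while both single stresses lay below them. The departure was 4.20 ± 0.66 on the log2 scale (SE, limma, adjusted p = 0.00487). Of its parts, heat against control was -2.49 (adjusted p = 0.00273) and drought against control -1.60 (adjusted p = 0.0714). In salt plants TraesCS4B02G219500 averaged 14.0 TPM with heat plus drought, 6.1 with heat, 3.7 with drought and 14.9 TPM with salt alone. TraesCS2A02G493400, on 2A, averaged 47.8 TPM under heat plus drought, 15.9 under heat, 10.8 under drought and 42.5 TPM in control, with a departure of 3.41 ± 0.65 (SE, limma, adjusted p = 0.0198). This call was lost in the model of the 4 groups alone and without control replicate 1, 2 or 4, heat replicate 1, drought replicate 3 or heat plus drought replicate 1.

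The 2 named downward departures had a lower mean in the combination than under heat alone. TraesCS4A02G116800, on 4A, had 20.1, 15.3, 21.5 and 28.9 TPM under heat plus drought, 45.1, 47.1, 37.5 and 43.6 TPM under heat, 15.9 to 24.7 TPM under drought and 12.6 to 18.5 TPM in control. Heat stood above the other 3 groups without overlap, and the departure was -1.37 ± 0.23 (SE, limma, adjusted p = 0.00589). In salt plants it averaged 18.5 TPM with heat plus drought, 13.3 with heat, 30.7 with drought and 16.7 TPM with salt alone. There the mean with heat was the lowest, and a departure in salt plants was not tested. Both this gene model and TraesCS4B02G219500 kept their call in every omission of 1 library and lost it in the model of the 4 groups alone. TraesCS7B02G338200, on 7B, averaged 8.69 TPM under heat plus drought, 18.5 under heat, 29.5 under drought and 8.84 TPM in control. Its departure of -2.55 ± 0.60 (SE, limma, adjusted p = 0.0445) was lost without a filter, in the model of the 4 groups alone, with the title number as a block, and without control replicate 1, 2 or 4, heat replicate 1 or 3, drought replicate 1 or 3, or heat plus drought replicate 1, 2 or 4.

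Plants on salt water offer the same addition of heat and drought in libraries that had no part in choosing the gene models above. Salt plus heat plus drought against salt called 711 gene models (1.40%), with 496 rises (0.975%) and 215 falls (0.423%). The 2 comparisons have no library in common, although they share the estimate of spread of each gene model. The split was 381 rises and 300 falls without low confidence gene models, 653 and 846 after quantile normalisation, and 641 and 807 after median-of-ratios scaling. Salt replicate 3, the library rich in low confidence gene models, brought the count to 358 when left out, with 214 rises and 144 falls. The count was 426 without salt replicate 4, and 287, 451 and 404 without salt plus heat plus drought replicates 1, 3 and 4.

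Of the 1039 gene models that rose under heat plus drought, 272 also rose when heat and drought were added to salt, 26.2% against the 0.975% of all gene models tested. Of the 565 that fell, 88 also fell, 15.6% against 0.423%. These were 54.8% of the rises and 40.9% of the falls of the salt comparison. By sign alone, 94.5% of the rises were higher with heat and drought in salt plants, against 68.9% of all gene models tested, and 88.3% of the falls were lower, against 31.1%. The median log2 change in salt plants was 0.52 for the rises, -0.45 for the falls and 0.12 for all gene models tested. The number of shared rises was 170 without salt replicate 3 and 167 without salt plus heat plus drought replicate 1. With the title number as a block 125 rises and 31 falls were shared. The number of shared falls was 56 and 44 without salt replicates 2 and 4, and 44, 57 and 52 without salt plus heat plus drought replicates 1, 3 and 4.

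All 20 of the largest rises rose in salt plants too, with a median log2 change of 4.05, while 7 of the 20 largest falls fell there, with a median of -0.97. Some falls not called there had little room to fall further. TraesCS1D02G431200, TraesCS4D02G206200, TraesCS1D02G430700, TraesCS1A02G422900 and TraesCS5B02G268100 averaged 0.16 to 0.57 TPM under salt alone, against 10.3 to 31.2 TPM in control. The other falls not called averaged 1.68 to 13.4 TPM under salt alone. TraesCS2D02G276000 had 60.8 to 78.7 TPM under salt plus heat plus drought and 0.32 to 0.52 TPM under salt alone, a log2 change of 5.66 ± 0.40 (SE, limma, adjusted p = 6.15e-10). TraesCS5B02G059200 had 1.02, 1.79, 1.63 and 2.67 TPM under salt plus heat plus drought and 19.3, 26.3, 8.18 and 33.9 TPM under salt, a log2 change of -2.92 ± 0.57 (SE, limma, adjusted p = 0.00532). With the title number as a block the change of TraesCS5B02G059200 was -2.55 and lost its call (adjusted p = 0.0662). The salt libraries of this gene model all lay below its control libraries, which had 45.8 to 63.4 TPM.

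The largest rise in salt plants was of TraesCS4D02G134900 on 4D. It had 1016, 316, 534 and 541 TPM under salt plus heat plus drought and 4.4, 2.44, 1.39 and 3.14 TPM under salt, a log2 change of 7.23 ± 1.08 (SE, limma, adjusted p = 0.000208). Without salt it had 465, 399, 84.5 and 116 TPM under heat plus drought and 6.53, 1.98, 0.30 and 5.41 TPM in control, a log2 change of 5.81 ± 1.08 (SE, limma, adjusted p = 0.00119). Under heat alone it had 0.35, 26.5, 1.5 and 256 TPM. The other large fall in salt plants, TraesCS4A02G106000 on 4A, had 4.89, 3.36, 0 and 3.78 TPM under salt plus heat plus drought and 20.9 to 35.6 TPM under salt (log2 change -3.15 ± 0.61, SE, limma, adjusted p = 0.00449). It had 10.7 to 34.7 TPM under heat plus drought and 4.71 to 37.5 TPM in control, with a log2 change of 0.47 (adjusted p = 0.782).

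**Figure D5:**
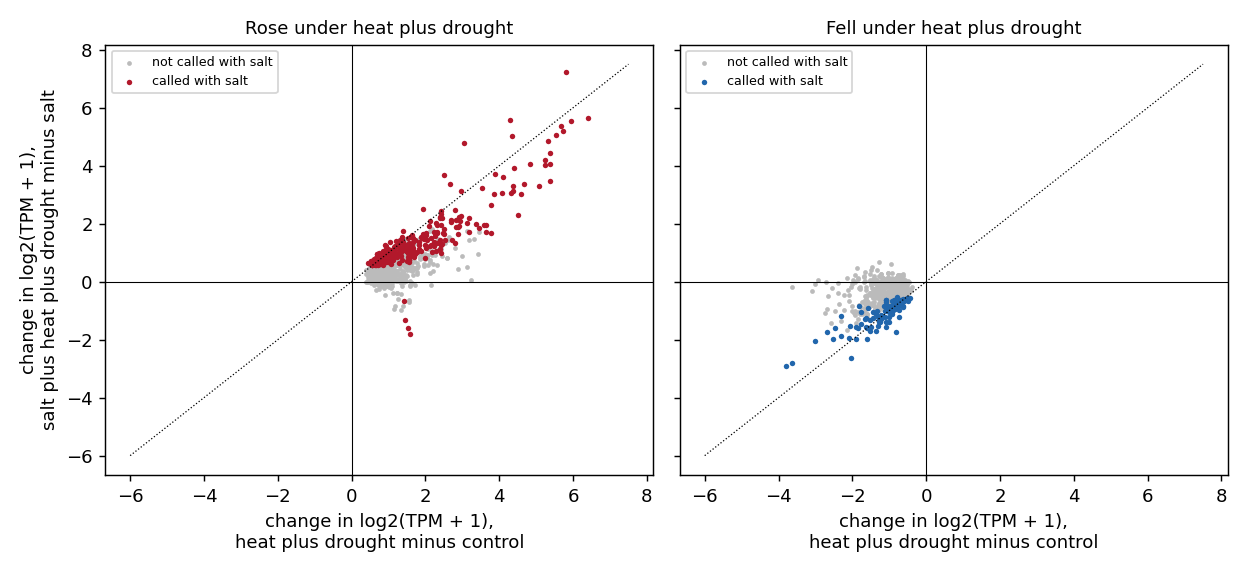
Gene models that rose (left, 1039) or fell (right, 565) under heat plus drought, with the difference in log2(TPM + 1) of heat plus drought minus control on the horizontal axis and of salt plus heat plus drought minus salt on the vertical axis. Coloured points, 272 rises and 88 falls in the same direction and 4 opposite ones, passed the threshold in the salt plants, and the dotted line marks equal change.

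The levels of these gene models in salt plants were also set against control. Measured from the mean of the control libraries, the median over the rises was 0.81 to 0.95 in the salt plus heat plus drought libraries, 0.92 to 1.03 in the heat plus drought libraries and 0.12 to 0.43 in the salt libraries. Over the falls it was -1.06 to -1.02 in the salt plus heat plus drought libraries, -1.22 to -0.90 in the heat plus drought libraries and -0.80 to -0.36 in the salt libraries. So the salt plus heat plus drought libraries stood near the heat plus drought libraries, and the salt libraries stood between them and control. Since the gene models were chosen on the control and heat plus drought libraries, the differences among these groups were not tested on them. That choice alone can place other libraries between the control and heat plus drought libraries. It can also make the median change in salt plants the smaller one. The values therefore cannot show whether the starting level had a part in the smaller medians.

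The direction was opposite for 4 of the 1039 rises, which fell in salt plants (9 at an unadjusted p under 0.05). None of the 565 falls rose there by the limma test (2 at an unadjusted p under 0.05). The 4 gene models lay on 1D, 3A, 3B and 3D. The 3 on group 3 chromosomes averaged 4.60, 2.28 and 3.60 TPM under heat plus drought and 0.88, 0.193 and 0.585 TPM in control, against 1.04, 0.773 and 0.92 TPM under salt plus heat plus drought and 6.5, 3.60 and 5.20 TPM under salt. Salt alone was the highest of these 4 groups for all 3 of them.

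The difference between the change in salt plants and the change in plants without salt passed the threshold for 23 of the 50881 gene models (0.0452%), 13 upward (0.0255%) and 10 downward (0.0197%). Of the 1039 gene models that rose under heat plus drought, 8 rose less or fell with salt, and 0 rose more by the limma test (329 and 0 at an unadjusted p under 0.05). Of the 565 that fell, 11 fell less or rose with salt, and 0 fell more (217 and 1 at an unadjusted p under 0.05). The heat plus drought and control libraries enter both this difference and the choice of these gene models. Outside these lists 2 gene models were higher with salt and 2 lower. TraesCS4A02G106000, named above for its fall in salt plants, had a difference of -3.62 ± 0.86 on the log2 scale (SE, limma, adjusted p = 0.163).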

How the data were processed

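The deposited TPM values were made by the authors with STAR, on the IWGSC wheat genome, and RSEM 1.3.3, per the series text. CASAVA and Trimmomatic are also named, per the submitters' processing notes. The table gave 298774 transcripts in 32 columns, each matched to 1 sample by its name, with 0 columns left over. Library totals were 999997.74 to 1000001.97, so the number of reads is unknown and no counting interval or count model was used.

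Transcripts were summed to 269428 gene models, of which 50881 had at least 1 TPM in at least 4 of the 8 heat plus drought and control libraries. Comparisons used limma 3.58.1, with a trended eBayes, run in R 4.3.3 on log2(TPM + 1). A single model held a mean for each of the 8 groups, with 24 residual degrees of freedom, and p-values were two-sided and adjusted by Benjamini-Hochberg over all gene models tested. They set a difference between group means against the spread of libraries within treatments, estimated over all 8 groups together. The script was tested on artificial data with known answers. For heat plus drought against control, 59 of 100 simulated 2-fold changes and 98 of 100 simulated 4-fold changes were recovered. Calls among unchanged gene models numbered 13.

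In each of 5 comparisons the text names the 2 largest rises and the 2 largest falls past the threshold that averaged 5 TPM or more in the highest group and, for a pair of groups, had no overlap of libraries. It also names the ends of the longest run of neighbours in each direction. The comparison, this rule and the alternatives were chosen with earlier results of these data known, and the difference between the changes with and without salt, and that between salt plus heat plus drought and salt plus heat, were added after the data were seen. A reference table of 155467 genes on a later assembly matched 0 identifiers, so lists by function, leaf markers and sequences were not analysed here. Alternatives were another pseudocount, other filters, quantile normalisation, median-of-ratios scaling, removal of the most abundant or of low confidence gene models, separate models of the groups compared, eBayes without a trend, blocks by replicate or title number, and each library of the 6 groups in a tested comparison left out in turn.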

Additional observations from a re-analysis of the deposited data

Results flagged for a closer look

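In 75 groups of 4 libraries examined, 7 held a value far outside the other 3, where chance gives about 1 in 20. Control replicate 3 accounted for 4 of them. It had 44106 gene models at 1 TPM or more, against 50218 to 51289 in the other control libraries. Its share of TPM in the 100 gene models most abundant over the series was 33.5%, against 21.9% to 23.5%. Low confidence gene models held 7.81% of its TPM, against 9.39% to 9.51%. The gene models that rose held 0.879%, against 1.09% to 1.11%. Salt replicate 3 had 21.6% of TPM in low confidence gene models, against 9.24% to 9.83% in the other salt libraries. Heat plus drought replicate 4 had 7.42 TPM of TraesCS6A02G445400LC against 0 to 0.95 TPM in the other heat plus drought libraries. The same library had 1.66 TPM of TraesCS3A02G083400, which was listed at 0 in the other 3.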

How the results depend on the processing

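Counts of calls moved more than directions did. Of 427 values for the 20 named results under the alternatives, 382 kept their side of the threshold, 45 lost their call and 0 changed sign. The counts below set against the main ones are 1604 against control, 445 against heat, 4444 against drought, 315 departures, 711 in salt plants, 23 differences between plants with and without salt, and 272 rises and 88 falls shared with the salt plants. A pseudocount of 0.1 gave 3 differences by salt. Without a filter there were 2506 calls against drought and 122 departures, and with a filter of 5 TPM there were 1002 against control, 2947 against drought, 852 departures and 8 differences by salt. Quantile normalisation gave 3266 against control, 823 against heat, 2323 against drought, 86 departures, 1499 in salt plants, 45 differences by salt and 345 shared falls. Median-of-ratios scaling gave 3033 against control, 752 against heat, 2421 against drought, 151 departures, 1448 in salt plants and 358 shared falls. Departures numbered 137 without the 100 most abundant gene models and 562 without low confidence ones. Models of the compared groups alone gave 26 against heat, 1 departure, 430 in salt plants, 70 differences by salt and 46 shared falls. Deviations of same-numbered heat plus drought and control libraries correlated at 0.12, -0.05, 0.09 and 0.07, where all pairs ran from -0.17 to 0.12. With 4 libraries in each group, these values cannot settle whether replicate numbers pair the libraries. A replicate block gave 1681 calls against control and 753 departures, and moved no other count by over 1.5 times. The number in the sample title as a block gave 1344 against drought, 21 departures, 233 in salt plants, 14 differences by salt, 125 shared rises and 31 shared falls. Leaving out 1 library gave 881 to 1378 against control, 85 to 1616 against heat, 1432 to 6251 against drought, 20 to 10171 departures, 287 to 750 in salt plants, 7 to 22 differences by salt, 167 to 272 shared rises and 44 to 88 shared falls. Control, heat and salt replicate 3 and drought replicate 4, left out together after seeing the data, gave 191 against heat, 3149 departures and 439 in salt plants. Where no other cause is named, the cause was not tested. TPM keep no depth, so what depth limits is unknown.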

Other observations

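Transcripts were also fitted singly. Of 55065 transcripts tested, 985 rose and 531 fell under heat plus drought. Among 3991 gene models with at least 2 tested transcripts, 0 had transcripts called in opposite directions by limma, and 40 had them at an unadjusted p under 0.05. A transcript but not the sum was called in 77 gene models, and the sum but no transcript in 197.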
